A study of Homo sapiens with 22 samples.

Results

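The ribosome biogenesis factors followed here are 43 genes, chosen by symbol as 4 subunits of RNA polymerase I, 18 factors of the small ribosomal subunit, 13 factors of the large subunit and 8 small nucleolar ribonucleoprotein (snoRNP) and nucleolar proteins. All probes that the platform annotation gives to these symbols were collected. Of the 43 symbols, 39 had a probe under that annotation, with 51 probes among 48803 on the array. WDR43, GNL3, EBNA1BP2 and DDX18 were not analysed here. The single probe of NPM1, for the transcript NM_199185, was detected on 0 arrays, so 38 genes were tested of 10147 in all, with 46 of the 15324 tested probes. These were 4 RNA polymerase I, 17 small-subunit, 10 large-subunit and 7 snoRNP and nucleolar genes.

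Ribosomes are built in the nucleolus, where RNA polymerase I copies the ribosomal DNA into one long precursor that is then modified, cut and folded. The small-subunit processome, a large particle around the U3 snoRNA, assembles on the precursor first, and a separate set of helicases, GTPases and scaffold proteins matures the large subunit. The box C/D and H/ACA snoRNPs guide the chemical modification of the RNA. In proliferating cells such as HEK293T the pathway is highly active, and the transcription factor MYC is known to bind E-boxes in the promoters of many of its genes.

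RNA was measured on Illumina bead arrays in HEK293T, an established line from human embryonic kidney into which the SV40 large T antigen had been introduced. All cells had been transfected, either with siRNA against Satellite III (Sat III) transcripts, which are non-coding RNAs of pericentromeric repeats that heat switches on, or with scrambled siRNA. The samples with Sat III siRNA were 3 of untreated cells, 3 of cells heated to 42 °C for 1 h and 4 of cells given 6 h to recover from that heat shock, and those with scrambled siRNA were 4 of each kind. The labels number the replicates and do not speak of separate cultures, so the spread behind the p-values may be a technical one. The RNA of Sat III itself was not analysed here. Values are log2 normalised intensities, changes are differences of group means on that scale with the standard error (SE) of the model over all 22 arrays, and a gene was called at a limma adjusted p under 0.05 over all 10147 genes.

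The 2 tables that the authors deposited disagree on which array is which. Of the 22 columns of their normalised table, 15 had the probe order of the scanner column of the same label, 6 had that of an array labelled as another group, and 1 had no match, which left 7 scanner arrays, all of replicates 3 and 4, without agreement. HSPA6, a strictly heat-induced HSP70 gene, ran from 4.56 to 4.89 on the arrays that the scanner table labels untreated, from 12.49 to 13.74 on those labelled heat shock and from 9.61 to 10.60 on those labelled recovery. In recovery it ran from 9.61 to 9.89 with Sat III siRNA and from 10.08 to 10.60 with scrambled siRNA. That difference, -0.58 ± 0.24, did not pass (limma adjusted p = 0.136). DNAJB1 and HSPA1B, which rose at heat shock in both arms, were lower in recovery with Sat III siRNA than with scrambled siRNA. The differences were 0.49 ± 0.09 and 0.46 ± 0.07 (limma adjusted p = 0.000807 and 0.000131), and their part in the results was not tested. The scanner table was used with its own labels, and results on the 15 arrays labelled alike are given beside them. Of 8 markers of this kidney line 7 were detected on at least 3 arrays (PAX2 on none), against 1 of 3 measured keratinocyte, 2 of 5 fibroblast, 1 of 4 blood and 0 of 3 liver markers. PTPRC, CD3E and HBB of the blood list were detected on 0 arrays. The detected blood marker, CD14, ran from 6.00 to 6.50 in Sat III siRNA cells after heat shock and from 5.14 to 5.57 untreated. With scrambled siRNA CD14 ran from 5.73 to 6.05 after heat shock and from 5.13 to 5.63 untreated, and its part in the results was not tested. Median raw intensity was 60.9 to 64.6 on arrays of replicate 1, 56.5 to 59.7 on those of replicate 2 and 48.9 to 54.8 on those of replicates 3 and 4. Changes within replicates 1 and 2 and within replicates 3 and 4 are therefore given beside the pooled ones. The labels do not give this split, and replicates 1 and 2 differed in intensity too. In replicates 3 and 4 the Sat III siRNA arm has 1 untreated and 1 heat-shocked array, which are assumed to vary like the other groups.

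Promoters of some of the genes that moved in both arms are shown first, since promoters are the regions where transcription of the members begins. Those of POLR1B, NOP16 and IMP4, which also passed in both arms in some comparison, are not shown. RefSeq (GRCh38.p14) promoters, 250 bases before to 50 after a start site, were at hand for 36 of the 43 genes. NOP14, UTP18 and DDX10 had the largest falls in recovery among the small-subunit genes called in both arms, and IMP3, PPAN and NIP7 are the genes that fell at heat shock in both arms. Each sequence runs 5′ to 3′, and capitals mark the E-box CACGTG, the ETS-type motif CCGGAAG, the GC box GGGCGG and the heat shock element GAANNTTC, searched on both strands.
NOP14 (chr4:2963357-2963656, minus strand): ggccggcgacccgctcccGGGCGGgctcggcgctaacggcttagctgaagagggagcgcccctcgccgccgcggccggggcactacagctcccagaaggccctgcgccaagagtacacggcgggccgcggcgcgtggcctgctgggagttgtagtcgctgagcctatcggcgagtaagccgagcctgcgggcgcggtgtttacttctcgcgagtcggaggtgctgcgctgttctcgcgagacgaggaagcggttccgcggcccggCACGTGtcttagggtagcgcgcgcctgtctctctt
UTP18 (chr17:51260296-51260595, plus strand): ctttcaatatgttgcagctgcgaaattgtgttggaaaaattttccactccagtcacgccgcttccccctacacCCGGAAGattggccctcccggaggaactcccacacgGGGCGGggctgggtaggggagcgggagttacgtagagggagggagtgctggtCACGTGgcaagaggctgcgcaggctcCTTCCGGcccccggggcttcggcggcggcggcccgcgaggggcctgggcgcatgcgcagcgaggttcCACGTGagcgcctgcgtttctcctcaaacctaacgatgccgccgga
DDX10 (chr11:108664819-108665118, plus strand): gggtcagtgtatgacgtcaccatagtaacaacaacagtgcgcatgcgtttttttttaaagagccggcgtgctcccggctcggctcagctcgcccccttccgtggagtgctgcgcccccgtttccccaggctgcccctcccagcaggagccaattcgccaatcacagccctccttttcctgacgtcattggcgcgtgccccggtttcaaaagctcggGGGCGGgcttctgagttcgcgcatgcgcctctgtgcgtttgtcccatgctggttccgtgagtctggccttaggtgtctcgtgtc
IMP3 (chr15:75640175-75640474, minus strand): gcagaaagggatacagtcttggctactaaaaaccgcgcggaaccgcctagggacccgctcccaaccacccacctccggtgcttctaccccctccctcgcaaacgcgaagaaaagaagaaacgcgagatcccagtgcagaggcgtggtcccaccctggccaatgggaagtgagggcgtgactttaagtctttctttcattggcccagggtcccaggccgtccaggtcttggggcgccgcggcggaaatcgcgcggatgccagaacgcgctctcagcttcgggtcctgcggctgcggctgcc
PPAN (chr19:10105973-10106272, plus strand): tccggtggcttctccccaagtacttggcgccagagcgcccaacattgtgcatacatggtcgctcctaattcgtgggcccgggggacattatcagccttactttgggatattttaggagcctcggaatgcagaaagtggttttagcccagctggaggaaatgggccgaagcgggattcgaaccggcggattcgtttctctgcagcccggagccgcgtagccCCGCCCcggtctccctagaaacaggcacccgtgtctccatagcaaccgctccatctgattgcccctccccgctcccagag
NIP7 (chr16:69339522-69339821, plus strand): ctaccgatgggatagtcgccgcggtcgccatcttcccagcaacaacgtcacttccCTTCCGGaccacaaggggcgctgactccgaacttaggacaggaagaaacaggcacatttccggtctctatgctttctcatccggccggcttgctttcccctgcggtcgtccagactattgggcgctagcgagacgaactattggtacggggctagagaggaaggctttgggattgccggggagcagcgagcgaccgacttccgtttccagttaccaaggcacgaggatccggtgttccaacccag

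The table holds a second PPAN start site, with a window (chr19:10106112-10106411, plus strand) that overlaps the one shown and has 2 ETS-type motifs and a GC box, and a gene was counted as holding a motif if any of its windows did. Among the members an E-box stood in 16 of 36 promoters (44.4%), against 1093 of 8364 tested genes with a promoter (13.1%) and 8.78% of all 27305 genes in the table. The member and class counts include WDR43, GNL3, EBNA1BP2 and NPM1, which were not tested. Of the tested members with a promoter, 13 held an E-box and 19 did not. By class it stood in 9 of 17 small-subunit, 5 of 10 large-subunit, 2 of 6 snoRNP and nucleolar and 0 of 3 RNA polymerase I promoters. The ETS-type motif stood in 14 of 36 member promoters (38.9%) against 23.1% of tested genes, and the GC box in 28 (77.8%) against 78.2%. A heat shock element stood in 1 member promoter (2.78%), that of POLR1A, against 6.56% of tested genes. Of the 9 genes that fell in recovery with scrambled siRNA, 8 had a promoter entry and 4 of these held an E-box (NOP14, UTP18, BYSL and IMP4), a share near that of the members as a whole. The 3 genes that fell at heat shock in both arms held none. These counts describe letters in a window and say nothing of a factor's binding.

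Across the treatments, falls in recovery were the commonest change among the members. With Sat III siRNA, 7 of 38 members were lower in recovery than in untreated cells and 0 were higher, where 5.94% of all tested genes were lower and 6.05% higher. With scrambled siRNA, 9 were lower and 0 higher, against 5% and 5.9% of all tested genes. NOP14, UTP18, IMP4, DDX10 and NIP7 were lower in both arms. As shares of the members the falls were 18.4% and 23.7%. In these bulk samples, fewer cells of a kind and less RNA per cell cannot be told apart. The members' median change was -0.09 with Sat III siRNA and -0.14 with scrambled siRNA, beside -0.01 and -0.01 over all tested genes. With each array centred on its median in place of quantile normalisation, the median of all genes moved to -0.09 and -0.09, the members lay 0.14 and 0.15 below it, and 46 of the 48 member calls of all comparisons were lost, all but those of PPAN at heat shock with scrambled siRNA and from heat shock to recovery with Sat III siRNA.

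Small-subunit factors were 17 of the 38 tested members. They were 7 of the 9 members that fell in recovery with scrambled siRNA and 4 of the 7 with Sat III siRNA. With scrambled siRNA, 7 of 17 small-subunit factors were lower in recovery than untreated, with a class median of -0.22, against 1 of 10 large-subunit factors (-0.12), 1 of 4 RNA polymerase I subunits (-0.01) and 0 of 7 snoRNP and nucleolar genes (-0.08). With Sat III siRNA the counts were 4 of 17 (-0.14), 2 of 10 (-0.08), 0 of 4 (0.02) and 1 of 7 (-0.09). Among 83 further tested genes of the pathway, 4 of 29 small-subunit (13.8%) and 2 of 36 large-subunit genes (5.56%) were lower with scrambled siRNA. With Sat III siRNA they were 1 of 29 (3.45%) and 1 of 36 (2.78%), below the 5.94% of all tested genes. The further RNA polymerase I genes gave 0 of 11 and the snoRNP genes 1 of 7 in each arm. Several member calls were lost when 1 array was left out, as given by gene below. No test compares the classes, and these counts describe the genes on the array.

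**Figure D1:**
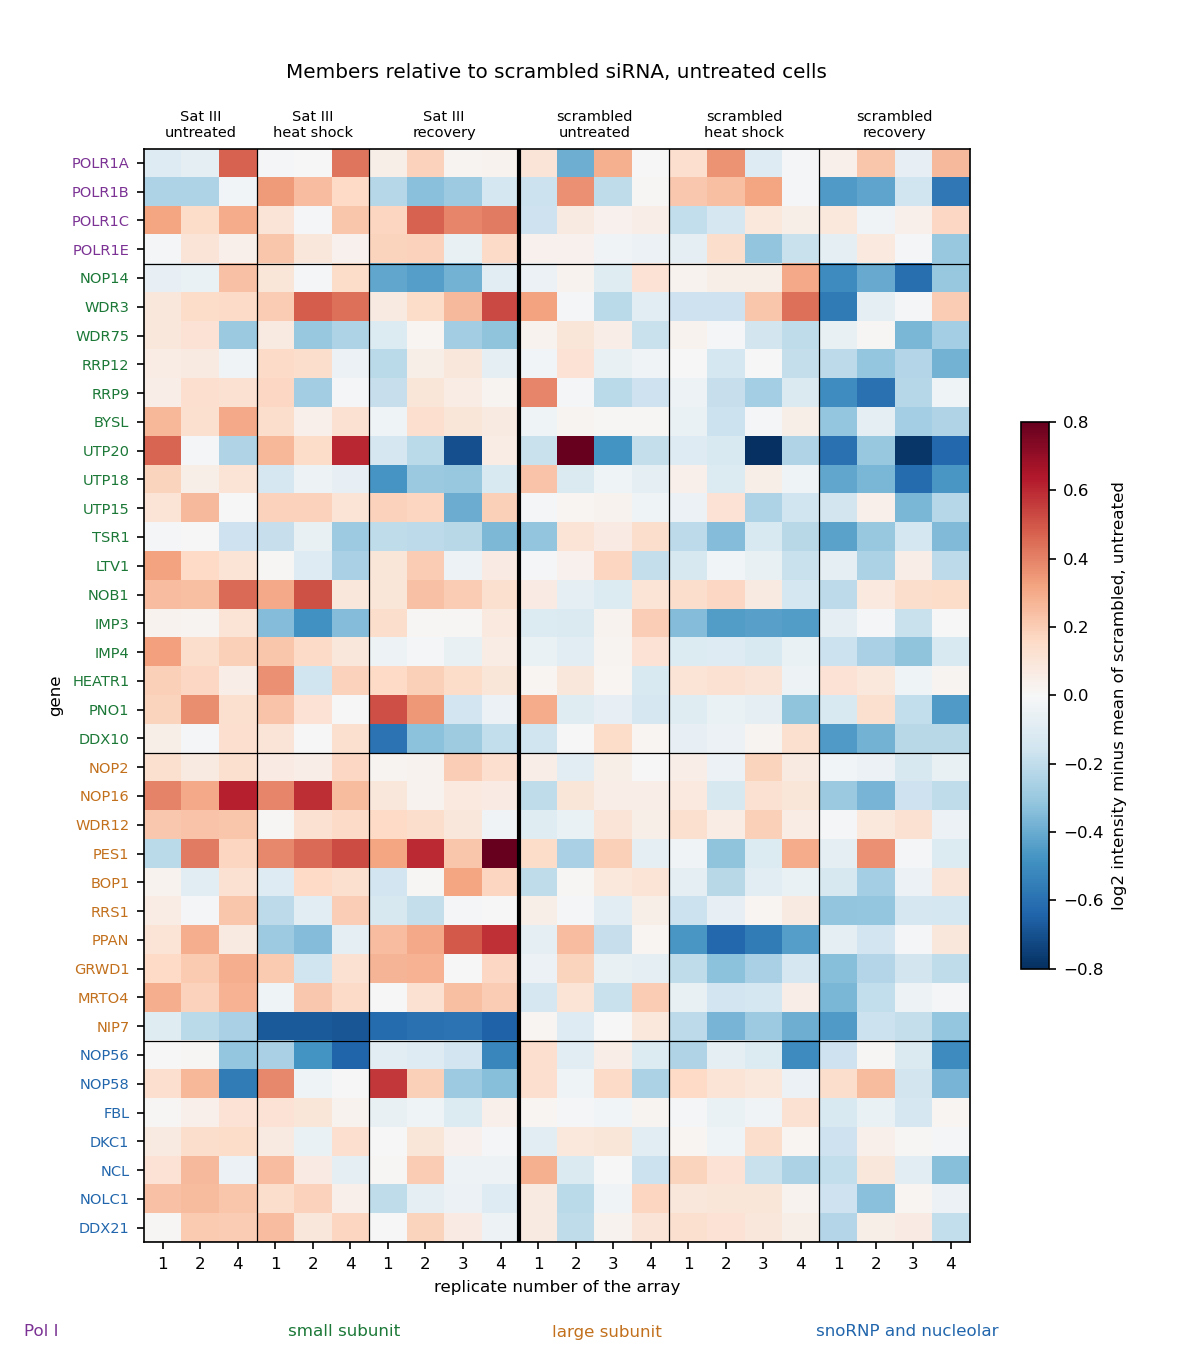
Log2 intensity of the 38 tested members (rows, grouped and coloured by class) on each of the 22 arrays (columns, by siRNA, treatment and replicate number), relative to the mean of the untreated scrambled siRNA arrays; the colour scale ends at 0.8 in each direction. Most small-subunit rows are blue in recovery with scrambled siRNA, and IMP3, PPAN and NIP7 are blue after heat shock in both arms.

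Among the RNA polymerase I subunits, POLR1B, the second-largest (chromosome 2, 112542036 to 112579818, GRCh38.p14), moved with treatment in both arms. POLR1B measured 6.81, 6.81 and 7.03 in untreated Sat III siRNA cells, 7.40, 7.31 and 7.22 after heat shock and 6.83, 6.73, 6.77 and 6.92 in recovery. Scrambled siRNA gave POLR1B values of 6.88, 7.43, 6.85 and 7.07 in untreated cells, 7.28, 7.30, 7.37 and 7.05 after heat shock and 6.60, 6.64, 6.90 and 6.49 in recovery. Heat-shocked cells were above recovering cells on every array of each arm, and the recovery values overlapped those of untreated cells in both arms. Recovery was below heat shock by 0.50 ± 0.12 (limma adjusted p = 0.00488) with Sat III siRNA and by 0.59 ± 0.11 (limma adjusted p = 0.000518) with scrambled siRNA, or 1.51-fold in the scrambled arm. A second probe of the gene was lower too, at -0.60 ± 0.17 (limma adjusted p = 0.0188 over all tested probes) and -0.76 ± 0.16 (limma adjusted p = 0.00184 over all tested probes).

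Against untreated cells, POLR1B was higher at heat shock with Sat III siRNA by 0.42 ± 0.13 (limma adjusted p = 0.0467), and at 0.19 ± 0.11 (limma adjusted p = 0.332) it did not pass with scrambled siRNA. With Sat III siRNA the second probe did not pass there, at 0.42 ± 0.19 (limma adjusted p = 0.232 over all tested probes). Nor did the brighter probe when adjusted over all tested probes (limma adjusted p = 0.0548). In recovery POLR1B was lower with scrambled siRNA by 0.40 ± 0.11 (limma adjusted p = 0.0241), where the second probe measured -0.65 ± 0.16 (limma adjusted p = 0.0149 over all tested probes), and with Sat III siRNA it did not pass at -0.07 ± 0.12 (limma adjusted p = 0.749). The heat call did not survive leaving out untreated replicate 1 (0.157), heat shock replicate 1 (0.156), untreated replicate 2 (0.156), heat shock replicate 2 (0.115) or heat shock replicate 4 (0.0586), by adjusted p in limma, nor the replicate number as a term (0.0556). The recovery call was lost without recovery replicate 1 (0.0603), untreated replicate 2 (0.0808), untreated replicate 4 (0.0517) or recovery replicate 4 (0.0766).

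POLR1C, a subunit shared with RNA polymerase III, differed more by siRNA than by treatment. POLR1C measured 11.47, 11.30 and 11.46 in untreated Sat III siRNA cells, 11.26, 11.15 and 11.38 after heat shock and 11.33, 11.63, 11.55 and 11.57 in recovery. Scrambled siRNA gave POLR1C values of 10.99, 11.23, 11.19 and 11.21 in untreated cells, 10.96, 11.02, 11.24 and 11.21 after heat shock and 11.24, 11.13, 11.20 and 11.32 in recovery. In recovery all 4 Sat III siRNA arrays were above all 4 scrambled ones, while untreated replicate 1 of the scrambled arm stood low. The difference between the arms in recovery was 0.30 ± 0.09 (limma adjusted p = 0.0262), and a second probe gave 0.40 ± 0.07 (limma adjusted p = 0.000822 over all tested probes). In untreated cells the second probe was also higher with Sat III siRNA, at 0.28 ± 0.08 (limma adjusted p = 0.0385 over all tested probes), against 0.25 ± 0.09 (limma adjusted p = 0.118) for the brighter probe. Recovery was above heat shock with Sat III siRNA by 0.26 ± 0.09 (limma adjusted p = 0.0479), with overlapping arrays, and the second probe did not pass there at 0.18 ± 0.08 (limma adjusted p = 0.123 over all tested probes). Leaving out 1 array ended the difference between the arms for scrambled recovery replicate 2 (0.0795), Sat III recovery replicate 2 (0.089), scrambled recovery replicate 3 (0.061), Sat III recovery replicate 3 (0.0559) or Sat III recovery replicate 4 (0.0722) and the rise after heat shock for heat shock replicate 1 (0.107), heat shock replicate 2 (0.207), recovery replicate 2 (0.124), recovery replicate 3 (0.0895) or recovery replicate 4 (0.0977). POLR1A, the largest subunit, lay close to background at 5.19 to 6.06 (detected on 20 of 22 arrays), and POLR1E at 9.72 to 10.26, and neither passed in any comparison. A second probe of POLR1E was higher with Sat III siRNA in recovery, at 0.27 ± 0.08 (limma adjusted p = 0.0439 over all tested probes), against 0.19 ± 0.09 (limma adjusted p = 0.204) for the brighter probe.

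**Figure D2:**
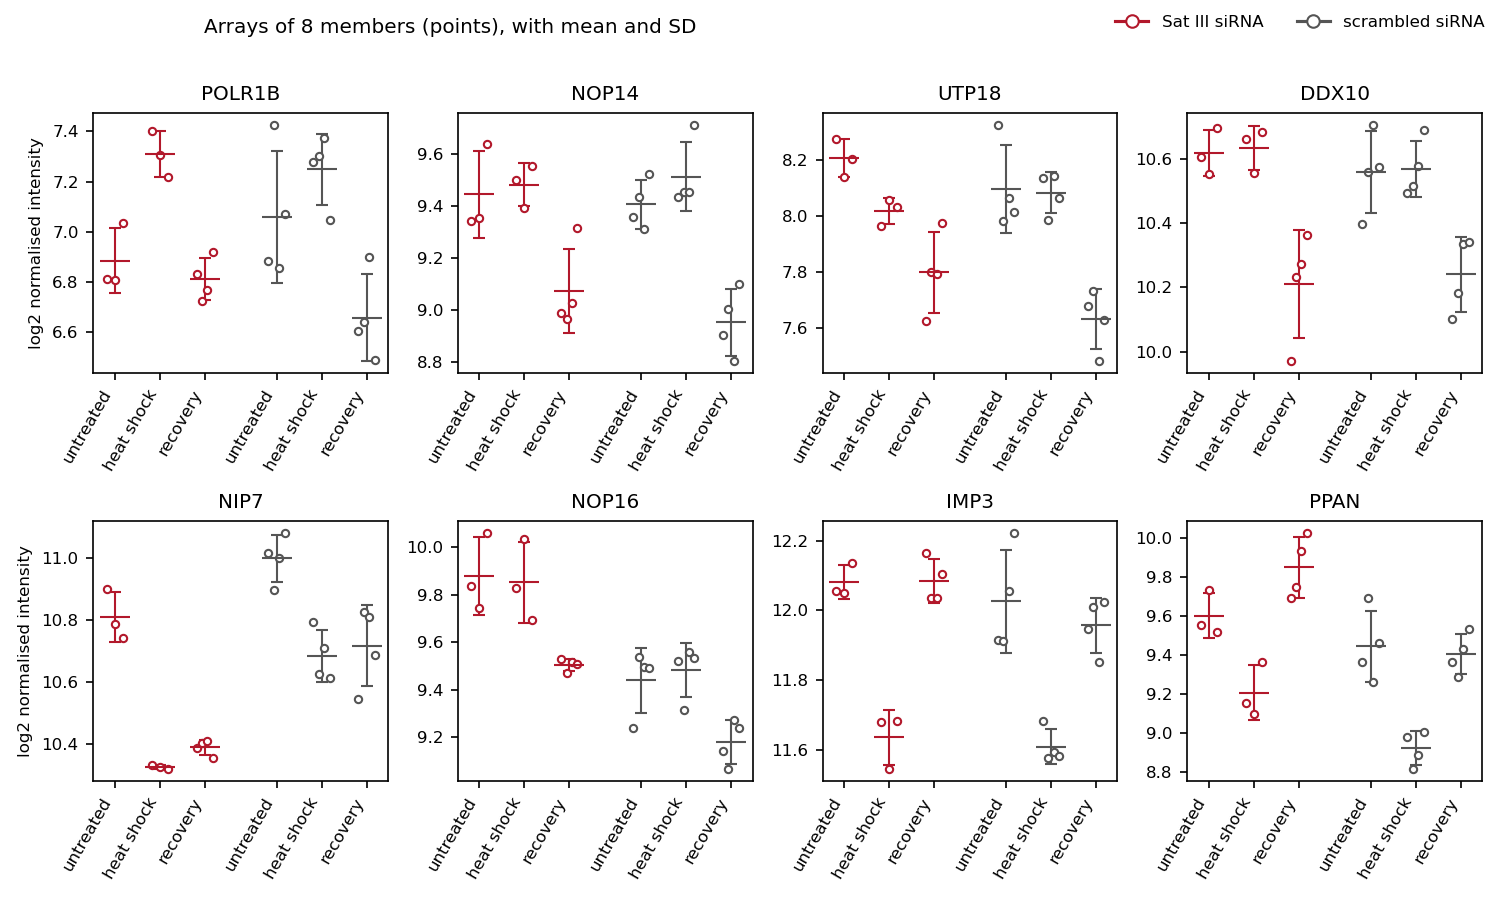
Log2 normalised intensity of 8 members on each array (open circles), with group mean and SD (bars), for Sat III siRNA (red, left) and scrambled siRNA (grey, right) in untreated, heat-shocked and recovering cells; each panel has its own vertical axis, which does not start at 0. NOP14, UTP18 and DDX10 are low in recovery in both arms, IMP3 and PPAN are low after heat shock alone, and NIP7 is low after heat shock and in recovery.

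Of the small-subunit genes that were low in recovery, NOP14, UTP18, DDX10 and IMP4 passed in both arms. NOP14, a component of the processome (chromosome 4, 2937936 to 2963406), had the promoter with an E-box shown above. NOP14 measured 9.34, 9.35 and 9.64 in untreated Sat III siRNA cells, 9.50, 9.39 and 9.55 after heat shock and 8.99, 8.96, 9.03 and 9.31 in recovery. Scrambled siRNA gave NOP14 values of 9.36, 9.43, 9.31 and 9.52 in untreated cells, 9.43, 9.45, 9.45 and 9.71 after heat shock and 8.90, 9.002, 8.80 and 9.10 in recovery. In each arm every recovery array was below every untreated and every heat-shocked array. Against untreated cells NOP14 fell by 0.37 ± 0.10 (limma adjusted p = 0.0207) with Sat III siRNA and by 0.45 ± 0.09 (limma adjusted p = 0.00345) with scrambled siRNA, and against heat shock by 0.41 ± 0.10 (limma adjusted p = 0.00621) and 0.56 ± 0.09 (limma adjusted p = 0.000166). With Sat III siRNA the call against untreated cells was lost without recovery replicate 1 (0.0533), recovery replicate 2 (0.0604), recovery replicate 3 (0.051) or untreated replicate 4 (0.134). NOP14 shares its locus with the antisense gene NOP14-AS1, so its separate value is uncertain.

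UTP18, a WD-repeat protein of the U3 snoRNP (chromosome 17, 51260546 to 51297933), has E-boxes on both sides of its start site. UTP18 measured 8.27, 8.14 and 8.20 in untreated Sat III siRNA cells, 7.96, 8.05 and 8.03 after heat shock and 7.62, 7.80, 7.79 and 7.98 in recovery. Scrambled siRNA gave UTP18 values of 8.32, 7.98, 8.06 and 8.01 in untreated cells, 8.14, 7.99, 8.14 and 8.06 after heat shock and 7.68, 7.73, 7.48 and 7.63 in recovery. The 4 recovery arrays of each arm were below all its untreated arrays, and with scrambled siRNA also below all heat-shocked ones. UTP18 fell in recovery against untreated cells by 0.41 ± 0.09 (limma adjusted p = 0.00562) with Sat III siRNA and by 0.47 ± 0.08 (limma adjusted p = 0.00106) with scrambled siRNA. Against heat shock it fell by 0.45 ± 0.08 (limma adjusted p = 0.000453) with scrambled siRNA, and with Sat III siRNA it did not pass at -0.22 ± 0.09 (limma adjusted p = 0.0913). All 3 calls held without any 1 array.

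DDX10, a DEAD-box RNA helicase of the small-subunit pathway (chromosome 11, 108665069 to 108940927), had a promoter with a GC box and no E-box. DDX10 measured 10.61, 10.55 and 10.70 in untreated Sat III siRNA cells, 10.66, 10.56 and 10.68 after heat shock and 9.97, 10.23, 10.27 and 10.36 in recovery. Scrambled siRNA gave DDX10 values of 10.40, 10.56, 10.71 and 10.57 in untreated cells, 10.49, 10.51, 10.58 and 10.69 after heat shock and 10.10, 10.18, 10.34 and 10.34 in recovery. Recovery arrays were the lowest of each arm without overlap, and replicate 1 was lowest among them in both. Against untreated cells DDX10 fell by 0.41 ± 0.09 with Sat III siRNA and by 0.32 ± 0.09 with scrambled siRNA (limma adjusted p = 0.00672 and 0.0213). Against heat shock it fell by 0.42 ± 0.09 (limma adjusted p = 0.00231) and by 0.33 ± 0.09 (limma adjusted p = 0.00844). With scrambled siRNA the call against untreated cells was lost without recovery replicate 1 (0.0731), recovery replicate 2 (0.0518) or untreated replicate 3 (0.0738).

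IMP4, a protein of the U3 snoRNP, changed little but with narrow spread. IMP4 measured 11.98, 11.79 and 11.85 in untreated Sat III siRNA cells, 11.87, 11.81 and 11.74 after heat shock and 11.61, 11.64, 11.59 and 11.71 in recovery. Scrambled siRNA gave IMP4 values of 11.60, 11.57, 11.68 and 11.77 in untreated cells, 11.54, 11.55, 11.53 and 11.60 after heat shock and 11.48, 11.39, 11.33 and 11.53 in recovery. Recovery arrays lay below all untreated arrays of the same arm, and Sat III siRNA arrays lay above scrambled ones in all treatments. IMP4 fell in recovery by 0.23 ± 0.07 (limma adjusted p = 0.0395) with Sat III siRNA and by 0.22 ± 0.07 (limma adjusted p = 0.038) with scrambled siRNA. Leaving out 1 array ended the first call for untreated replicate 1 (0.199), recovery replicate 1 (0.0752), recovery replicate 2 (0.0715), recovery replicate 3 (0.0919) or untreated replicate 4 (0.0748) and the second for recovery replicate 1 (0.0532), recovery replicate 2 (0.0816), untreated replicate 3 (0.0837), recovery replicate 3 (0.113) or untreated replicate 4 (0.121).

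IMP3, its partner in the same complex (chromosome 15, 75639093 to 75640224), followed another course, and its promoter held none of the 4 motifs. IMP3 measured 12.05, 12.05 and 12.14 in untreated Sat III siRNA cells, 11.68, 11.54 and 11.68 after heat shock and 12.16, 12.04, 12.04 and 12.11 in recovery. Scrambled siRNA gave IMP3 values of 11.92, 11.91, 12.05 and 12.22 in untreated cells, 11.68, 11.58, 11.59 and 11.58 after heat shock and 11.95, 12.01, 11.85 and 12.02 in recovery. Heat-shocked arrays were the lowest of each arm without overlap, and recovery arrays overlapped the untreated ones. IMP3 fell at heat shock by 0.45 ± 0.08 (limma adjusted p = 0.00107) with Sat III siRNA and by 0.42 ± 0.07 (limma adjusted p = 0.000337) with scrambled siRNA. It was higher in recovery than at heat shock by 0.45 ± 0.08 (limma adjusted p = 0.000229) and 0.35 ± 0.07 (limma adjusted p = 0.00122). These 4 calls held without any 1 array, and within replicates 1 and 2 the heat shock change with scrambled siRNA was -0.29 (limma adjusted p = 0.137), against -0.55 within replicates 3 and 4.

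The remaining 3 small-subunit factors that were lower in recovery passed with scrambled siRNA alone, although no difference between the arms passed for any of them. BYSL is known from small-subunit maturation. BYSL measured 10.35, 10.21 and 10.39 in untreated Sat III siRNA cells, 10.22, 10.12 and 10.21 after heat shock and 10.04, 10.21, 10.18 and 10.16 in recovery. Scrambled siRNA gave BYSL values of 10.05, 10.10, 10.09 and 10.09 in untreated cells, 10.03, 9.91, 10.07 and 10.13 after heat shock and 9.77, 10.01, 9.81 and 9.84 in recovery. With scrambled siRNA every recovery array was below every untreated one, and with Sat III siRNA they overlapped. BYSL fell by 0.22 ± 0.07 (limma adjusted p = 0.038) with scrambled siRNA, against -0.17 ± 0.07 (limma adjusted p = 0.153) with Sat III siRNA. The call was lost without any 1 of 7 of the 8 arrays, all but recovery replicate 2 (limma adjusted p = 0.0533 to 0.111).

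RRP12, whose yeast counterpart helps export pre-ribosomes, was also lowest in recovery with scrambled siRNA. RRP12 measured 9.62, 9.63 and 9.53 in untreated Sat III siRNA cells, 9.71, 9.70 and 9.51 after heat shock and 9.35, 9.61, 9.65 and 9.49 in recovery. Scrambled siRNA gave RRP12 values of 9.54, 9.67, 9.50 and 9.53 in untreated cells, 9.57, 9.42, 9.56 and 9.37 after heat shock and 9.35, 9.25, 9.32 and 9.18 in recovery. Recovery arrays of the scrambled arm were below all its untreated and heat-shocked arrays, and those of the Sat III siRNA arm overlapped both. RRP12 fell by 0.28 ± 0.08 (limma adjusted p = 0.0218) with scrambled siRNA, against -0.07 ± 0.08 (limma adjusted p = 0.635) with Sat III siRNA. Its call was lost without untreated replicate 2 (0.0607) or recovery replicate 4 (0.0632).

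TSR1, a GTPase-like factor of late small-subunit maturation, had a wider spread. TSR1 measured 9.08, 9.09 and 8.92 in untreated Sat III siRNA cells, 8.91, 9.03 and 8.80 after heat shock and 8.89, 8.88, 8.87 and 8.73 in recovery. Scrambled siRNA gave TSR1 values of 8.77, 9.20, 9.16 and 9.23 in untreated cells, 8.88, 8.74, 8.97 and 8.87 after heat shock and 8.66, 8.79, 8.95 and 8.74 in recovery. Recovery and untreated arrays overlapped with scrambled siRNA, where untreated replicate 1 was low, and did not overlap with Sat III siRNA. TSR1 fell by 0.30 ± 0.09 (limma adjusted p = 0.038) with scrambled siRNA, against -0.19 ± 0.10 (limma adjusted p = 0.247) with Sat III siRNA. Leaving out 1 array ended the call for recovery replicate 1 (0.115), untreated replicate 2 (0.0932), recovery replicate 2 (0.0659), untreated replicate 3 (0.0936), untreated replicate 4 (0.114) or recovery replicate 4 (0.085). The other 9 small-subunit members (WDR3, WDR75, RRP9, UTP20, UTP15, LTV1, NOB1, HEATR1 and PNO1) passed in no comparison, and of these UTP20 was detected on 7 arrays and WDR3 on 19. In recovery against untreated cells with scrambled siRNA UTP20 measured -0.58 ± 0.23 (limma adjusted p = 0.112) and RRP9 -0.34 ± 0.13 (limma adjusted p = 0.0941).

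Among the large-subunit factors PPAN and NIP7 were lower at heat shock in both arms, and PPAN, NIP7, NOP16 and GRWD1 differed between the arms. PPAN, whose yeast counterpart Ssf1 acts in large-subunit assembly (chromosome 19, 10106223 to 10112012), was lower at heat shock than in untreated or recovering cells. PPAN measured 9.55, 9.73 and 9.52 in untreated Sat III siRNA cells, 9.15, 9.10 and 9.36 after heat shock and 9.69, 9.75, 9.93 and 10.03 in recovery. Scrambled siRNA gave PPAN values of 9.37, 9.69, 9.26 and 9.46 in untreated cells, 8.98, 8.81, 8.88 and 9.01 after heat shock and 9.37, 9.29, 9.43 and 9.53 in recovery. Heat-shocked arrays were the lowest of each arm without overlap. PPAN fell at heat shock by 0.40 ± 0.11 (limma adjusted p = 0.0296) with Sat III siRNA and by 0.52 ± 0.10 (limma adjusted p = 0.000675) with scrambled siRNA. From heat shock it was higher in recovery by 0.64 ± 0.10 (limma adjusted p = 0.000107), or 1.56-fold, and by 0.48 ± 0.10 (limma adjusted p = 0.000887), or 1.4-fold. The Sat III siRNA fall was lost without untreated replicate 1 (0.061), heat shock replicate 1 (0.102), untreated replicate 2 (0.149) or heat shock replicate 2 (0.138). PPAN shares its locus with the readthrough gene PPAN-P2RY11, so its separate value is uncertain.

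NIP7, a factor of large-subunit maturation (chromosome 16, 69339772 to 69343106), stayed low in recovery and is the one member called lower with Sat III siRNA. NIP7 measured 10.90, 10.79 and 10.74 in untreated Sat III siRNA cells, 10.33, 10.33 and 10.32 after heat shock and 10.39, 10.40, 10.41 and 10.35 in recovery. Scrambled siRNA gave NIP7 values of 11.02, 10.90, 11.002 and 11.08 in untreated cells, 10.79, 10.63, 10.71 and 10.61 after heat shock and 10.55, 10.83, 10.81 and 10.69 in recovery. Untreated arrays were the highest of each arm without overlap, and the 7 heated or recovering Sat III siRNA arrays lay within 10.32 to 10.41, below every scrambled array. NIP7 fell at heat shock by 0.49 ± 0.08 (limma adjusted p = 0.000295) with Sat III siRNA and by 0.32 ± 0.07 (limma adjusted p = 0.00372) with scrambled siRNA. In recovery it was below untreated cells by 0.42 ± 0.08 (limma adjusted p = 0.000942) and by 0.28 ± 0.07 (limma adjusted p = 0.0115). The last call was lost without recovery replicate 1 (0.0503), and the others held without any 1 array.

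NOP16, a nucleolar protein of large-subunit assembly and a known MYC target (chromosome 5, 176383946 to 176388598), was the member higher with Sat III siRNA in all 3 treatments. NOP16 measured 9.84, 9.74 and 10.06 in untreated Sat III siRNA cells, 9.83, 10.03 and 9.69 after heat shock and 9.53, 9.47, 9.52 and 9.51 in recovery. Scrambled siRNA gave NOP16 values of 9.24, 9.54, 9.49 and 9.49 in untreated cells, 9.52, 9.31, 9.56 and 9.53 after heat shock and 9.14, 9.07, 9.27 and 9.24 in recovery. Sat III siRNA arrays were above scrambled arrays in each treatment without overlap, and scrambled untreated replicate 1 stood low. NOP16 fell in recovery against heat shock by 0.35 ± 0.10 (limma adjusted p = 0.0123) with Sat III siRNA and by 0.30 ± 0.09 (limma adjusted p = 0.0178) with scrambled siRNA. Against untreated cells it fell by 0.37 ± 0.10 (limma adjusted p = 0.0136) with Sat III siRNA, and with scrambled siRNA it did not pass at -0.26 ± 0.09 (limma adjusted p = 0.0629). The calls were lost without Sat III heat shock replicate 2 (0.0985) for the first, without scrambled recovery replicate 2 (0.0557) or scrambled heat shock replicate 3 (0.053) for the second and without Sat III untreated replicate 4 (0.0958) for the third.

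GRWD1, a histone-binding WD-repeat protein whose yeast counterpart escorts a ribosomal protein of the large subunit, passed only between the arms in recovery. GRWD1 measured 10.33, 10.38 and 10.46 in untreated Sat III siRNA cells, 10.38, 10.01 and 10.29 after heat shock and 10.44, 10.45, 10.17 and 10.34 in recovery. Scrambled siRNA gave GRWD1 values of 10.12, 10.35, 10.11 and 10.10 in untreated cells, 9.97, 9.84, 9.91 and 10.04 after heat shock and 9.83, 9.94, 10.02 and 9.97 in recovery. All Sat III siRNA recovery arrays were above all scrambled ones, and untreated replicate 2 of the scrambled arm stood high. The other 6 large-subunit members (NOP2, WDR12, PES1, BOP1, RRS1 and MRTO4) passed in no comparison.

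Among snoRNP and nucleolar genes NOLC1, a chaperone-like nucleolar protein that binds snoRNPs, alone passed. NOLC1 measured 9.32, 9.34 and 9.31 in untreated Sat III siRNA cells, 9.23, 9.27 and 9.12 after heat shock and 8.88, 9.01, 9.04 and 8.98 in recovery. Scrambled siRNA gave NOLC1 values of 9.15, 8.87, 9.06 and 9.26 in untreated cells, 9.17, 9.18, 9.18 and 9.11 after heat shock and 8.92, 8.75, 9.10 and 9.04 in recovery. With Sat III siRNA the 3 treatments did not overlap, and recovery was lowest. NOLC1 fell there in recovery against untreated cells by 0.34 ± 0.09 (limma adjusted p = 0.0139), and with scrambled siRNA it did not pass at -0.13 ± 0.08 (limma adjusted p = 0.331). Leaving out 1 array ended the NOLC1 call (limma adjusted p) for untreated replicate 1 (0.0513) or untreated replicate 2 (0.0524). NOP56, NOP58 and FBL, core proteins of the box C/D snoRNP, DKC1, the H/ACA pseudouridine synthase, and NCL and DDX21 passed in no comparison. One further probe of NOP56 was higher in recovery than at heat shock with Sat III siRNA, at 0.29 ± 0.10 (limma adjusted p = 0.0465 over all tested probes).

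At the end of the heat shock, few members had changed. With Sat III siRNA 3 were lower (IMP3, PPAN and NIP7) and 1 higher (POLR1B), where 3.51% and 4.11% of all tested genes passed, and with scrambled siRNA the same 3 were lower and 0 higher, where 5.7% and 5.97% passed. The 3 lower genes are 7.89% of the members, near the background. The members' medians were -0.05 and -0.04, beside -0.02 and -0.02 over all tested genes. In the Sat III siRNA arm the median was -0.06 within replicates 1 and 2 and -0.08 within replicates 3 and 4, and in the scrambled arm -0.05 within replicates 1 and 2 and -0.01 within replicates 3 and 4. On the 15 arrays labelled alike, 3 members passed with Sat III siRNA (IMP3, PPAN and NIP7) and 2 with scrambled siRNA (IMP3 and PPAN). The count of 4 with Sat III siRNA was 2 without untreated replicate 1, untreated replicate 2, heat shock replicate 1 or heat shock replicate 2.

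Of 83 further tested genes of the pathway, 5 fell and 0 rose at heat shock with Sat III siRNA, and 3 fell and 1 rose with scrambled siRNA. The falls were 6.02% and 3.61% of these genes, where 3.51% and 5.7% of all tested genes fell. MYC fell in both arms, by 1.10 ± 0.15 (limma adjusted p = 2.4e-05) and by 0.73 ± 0.13 (limma adjusted p = 0.000353), or 2.14-fold and 1.66-fold. UTP23, a small-subunit processome factor, fell by 0.58 ± 0.09 and by 0.51 ± 0.08 (limma adjusted p = 0.000203 and 0.000136). UTP25, of the same particle, fell by 0.51 ± 0.11 (limma adjusted p = 0.0048) and by 0.40 ± 0.10 (limma adjusted p = 0.00855). DDX47 and DDX56, RNA helicases of the small and large subunit pathways, fell with Sat III siRNA by 0.44 ± 0.08 and 0.32 ± 0.08 (limma adjusted p = 0.000829 and 0.0124), and NIFK rose with scrambled siRNA by 0.25 ± 0.08 (limma adjusted p = 0.0353). Leaving out untreated replicate 1 (0.0549) or heat shock replicate 2 (0.0901) ended the DDX56 call, and the NIFK call ended without untreated replicate 1 (0.0769), heat shock replicate 1 (0.076), untreated replicate 2 (0.132), heat shock replicate 2 (0.0935) or heat shock replicate 3 (0.0797) (limma adjusted p).

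In recovery against untreated cells, the members' median with Sat III siRNA was -0.08 within replicates 1 and 2 and -0.12 within replicates 3 and 4, and with scrambled siRNA -0.14 within replicates 1 and 2 and -0.12 within replicates 3 and 4. On the 15 arrays labelled alike, 3 members were lower with Sat III siRNA (NOP14, DDX10 and NIP7) and 2 with scrambled siRNA (NOP14 and UTP18), and 0 were higher. The count of 9 with scrambled siRNA ranged from 3 to 9 over the arrays left out, at 3 without recovery replicate 1 and at 5 without untreated replicate 2, 3 or 4, and the count of 7 with Sat III siRNA was 4 without untreated replicate 4. Of the further pathway genes 3 fell with Sat III siRNA (UTP23, ZNF593 and LYAR) and 7 with scrambled siRNA (UTP25, WDR36, NOP9, RIOK1, GAR1, PAK1IP1 and LAS1L), and 0 rose in either arm. The falls were 3.61% of these genes with Sat III siRNA, below the 5.94% of all tested genes, and 8.43% with scrambled siRNA, against 5%. Of these 10 falls, UTP25 and WDR36 kept their calls without any 1 array, and the other 8 did not. WDR36, a U3 snoRNP protein, fell by 0.33 ± 0.07 (limma adjusted p = 0.00657) and RIOK1, a kinase of late small-subunit maturation, by 0.27 ± 0.08 (limma adjusted p = 0.0293), both with scrambled siRNA. RIOK1 did not pass without recovery replicate 1 (0.0537), recovery replicate 2 (0.0528), untreated replicate 3 (0.0952), recovery replicate 3 (0.0847) or untreated replicate 4 (0.107), by adjusted p in limma. MYC did not pass, at -0.03 ± 0.14 (limma adjusted p = 0.922) with Sat III siRNA and 0.16 ± 0.13 (limma adjusted p = 0.46) with scrambled siRNA.

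Recovery against heat shock moved members both ways. With Sat III siRNA 4 were lower and 3 higher, where 9.75% and 11.8% of all tested genes passed, and with scrambled siRNA 5 were lower and 2 higher, where 9.53% and 12.2% passed. POLR1B, NOP14, DDX10 and NOP16 were lower and IMP3 and PPAN higher in both arms. As shares of the 38 members these were 10.5% lower and 7.89% higher with Sat III siRNA and 13.2% and 5.26% with scrambled siRNA, so the share that fell lay near the background and the share that rose lay below it. The median with Sat III siRNA was -0.04, and -0.02 within replicates 1 and 2 and -0.05 within replicates 3 and 4, and with scrambled siRNA it was -0.08, and -0.09 within replicates 1 and 2 and -0.08 within replicates 3 and 4. On the 15 arrays labelled alike 6 members passed in each arm, all but POLR1C with Sat III siRNA and all but NOP16 with scrambled siRNA.

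Of the further pathway genes, 9 rose and 5 fell from heat shock to recovery with Sat III siRNA, and 3 rose and 13 fell with scrambled siRNA. As shares of these genes they were 10.8% and 6.02% with Sat III siRNA, against 11.8% and 9.75% of all tested genes, and with scrambled siRNA 3.61% and 15.7%, against 12.2% and 9.53%. MYC rose by 1.07 ± 0.14 (limma adjusted p = 7.1e-06) and 0.90 ± 0.13 (limma adjusted p = 2.4e-05), and SDAD1, a large-subunit factor, by 0.34 ± 0.09 (limma adjusted p = 0.0129) and 0.31 ± 0.09 (limma adjusted p = 0.0144). NIFK fell by 0.29 ± 0.08 (limma adjusted p = 0.0173) and 0.37 ± 0.08 (limma adjusted p = 0.00134), and LAS1L, also a large-subunit factor, by 0.28 ± 0.07 (limma adjusted p = 0.00803) and 0.28 ± 0.07 (limma adjusted p = 0.00417). POLR1F, a further RNA polymerase I subunit, fell with scrambled siRNA by 0.37 ± 0.08 (limma adjusted p = 0.00143). Left out singly, Sat III heat shock replicate 2 (0.0602) and scrambled recovery replicate 2 (0.0548) ended the SDAD1 calls, and Sat III heat shock replicate 2 (0.137) that of NIFK with Sat III siRNA (limma adjusted p).

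**Figure D3:**
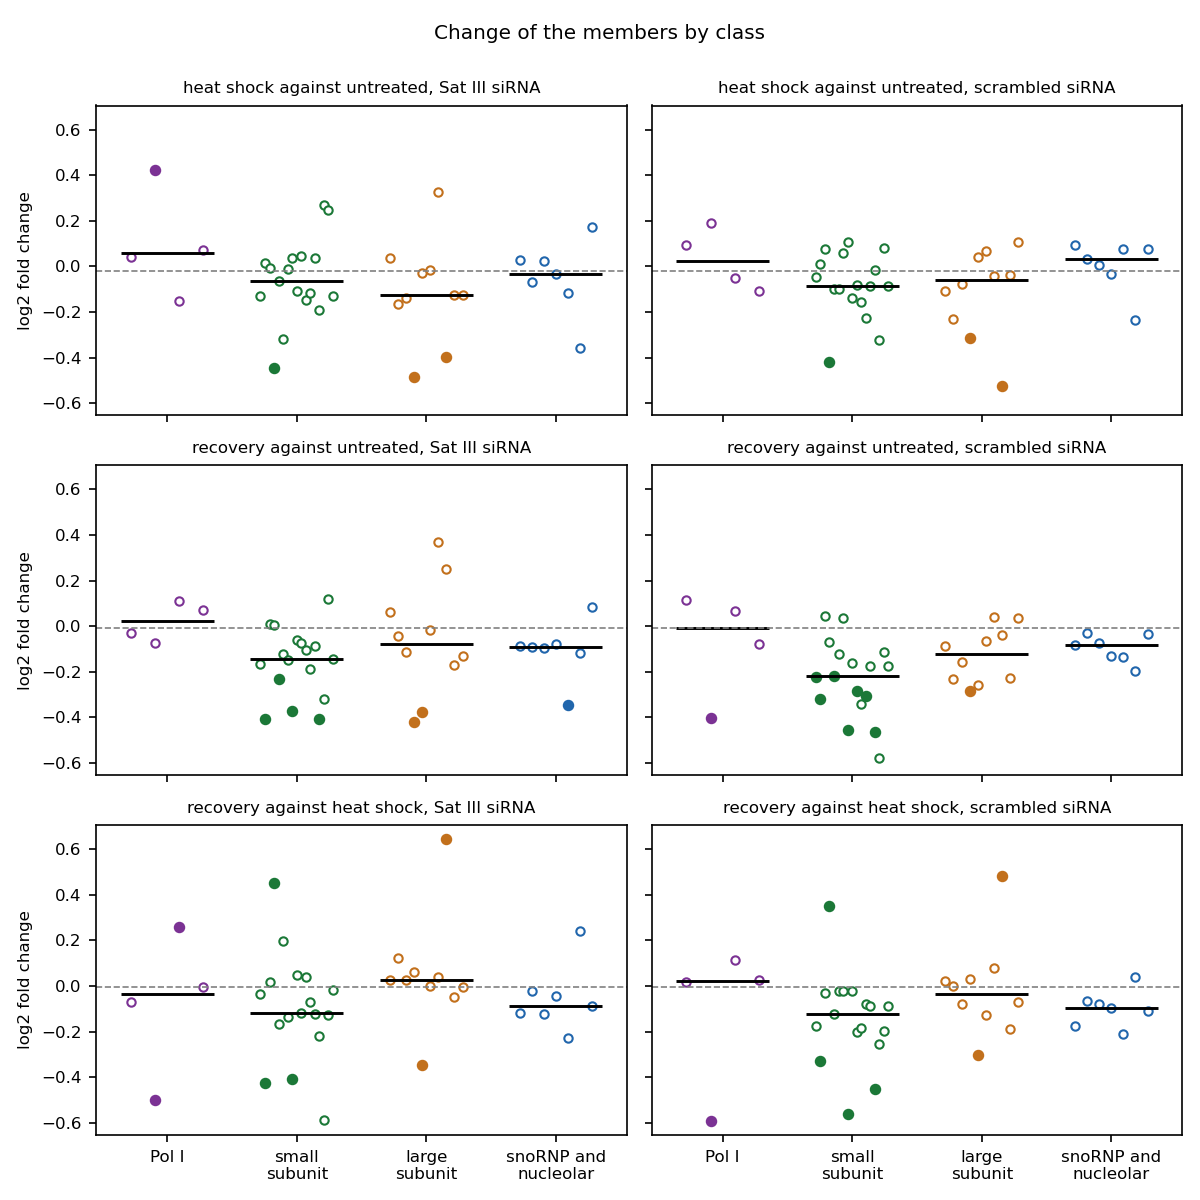
Log2 fold change of each tested member (circles, filled where the limma adjusted p is under 0.05) by class, for 3 comparisons (rows) with Sat III siRNA (left) and scrambled siRNA (right); black bars are class medians and the dashed line is the median of all 10147 tested genes. In recovery against untreated cells the small-subunit median lies at -0.14 with Sat III siRNA and -0.22 with scrambled siRNA, below the dashed line.

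Between the siRNA arms in recovery, most member calls were higher with Sat III siRNA, while of all tested genes more were lower than higher. In untreated and heat-shocked cells few members passed. In untreated cells 1 member was higher (NOP16) and 0 lower, where 2.27% and 3.82% of all tested genes passed. After heat shock 2 were higher (NOP16 and IMP4) and 1 lower (NIP7), against 2.35% and 4.68%. In recovery 6 were higher (PPAN, GRWD1, NOP16, POLR1C, BYSL and RRP12) and 1 lower (NIP7), against 3.6% and 6.92%. As shares of the members, 2.63% were higher in untreated cells, near the background. After heat shock 5.26% were higher and 2.63% lower, which rests on the 3 genes named. In recovery 15.8% were higher and 2.63% lower. The members' medians were 0.11, 0.07 and 0.16 in the 3 treatments, beside 0.00, 0.00 and 0.01 over all tested genes. In recovery the median was 0.17 within replicates 1 and 2 and 0.17 within replicates 3 and 4.

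NOP16 was higher with Sat III siRNA by 0.44 ± 0.10 (limma adjusted p = 0.00628) in untreated cells, by 0.37 ± 0.10 (limma adjusted p = 0.0183) after heat shock and by 0.33 ± 0.09 (limma adjusted p = 0.0198) in recovery. NIP7 was lower by 0.36 ± 0.08 (limma adjusted p = 0.0037) after heat shock and by 0.33 ± 0.07 (limma adjusted p = 0.00317) in recovery, and in untreated cells it did not pass at -0.19 ± 0.08 (limma adjusted p = 0.155). IMP4 was higher after heat shock by 0.25 ± 0.07 (limma adjusted p = 0.0354), and at 0.22 ± 0.07 (limma adjusted p = 0.0769) untreated and 0.21 ± 0.07 (limma adjusted p = 0.0526) in recovery it did not pass, although the arms did not overlap in any treatment. The NOP16 calls were lost without Sat III untreated replicate 4 (0.0622) in untreated cells, without scrambled heat shock replicate 2 (0.0699) or Sat III heat shock replicate 2 (0.153) after heat shock and without scrambled recovery replicate 1 (0.051) or scrambled recovery replicate 2 (0.0658) in recovery. The call for IMP4 ended (limma adjusted p) when the array left out was scrambled heat shock replicate 1 (0.0738), Sat III heat shock replicate 1 (0.141), scrambled heat shock replicate 2 (0.0723), Sat III heat shock replicate 2 (0.105) or scrambled heat shock replicate 3 (0.0811). NIP7 kept both calls without any 1 array.

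In recovery PPAN was higher with Sat III siRNA by 0.45 ± 0.10 (limma adjusted p = 0.00391), or 1.36-fold, and GRWD1 by 0.41 ± 0.09 (limma adjusted p = 0.00286), or 1.33-fold. BYSL was higher by 0.29 ± 0.07 (limma adjusted p = 0.00751) and RRP12 by 0.25 ± 0.08 (limma adjusted p = 0.0442), with overlapping arrays for RRP12. PPAN, GRWD1 and BYSL kept their calls without any 1 array, and RRP12 lost its call without scrambled recovery replicate 2 (0.0915), Sat III recovery replicate 2 (0.125), scrambled recovery replicate 3 (0.061), Sat III recovery replicate 3 (0.127), scrambled recovery replicate 4 (0.12) or Sat III recovery replicate 4 (0.0675). On the 15 arrays labelled alike, 0 members passed in untreated cells, 2 after heat shock (NOP16 and NIP7) and 2 in recovery, where GRWD1 was the one of the 7 genes above to keep its call. Without untreated replicate 4 of the Sat III siRNA arm 0 members passed in untreated cells, without untreated replicate 4 of the scrambled arm 2, and without heat shock replicate 2 of the scrambled arm 1 passed after heat shock.

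**Figure D4:**
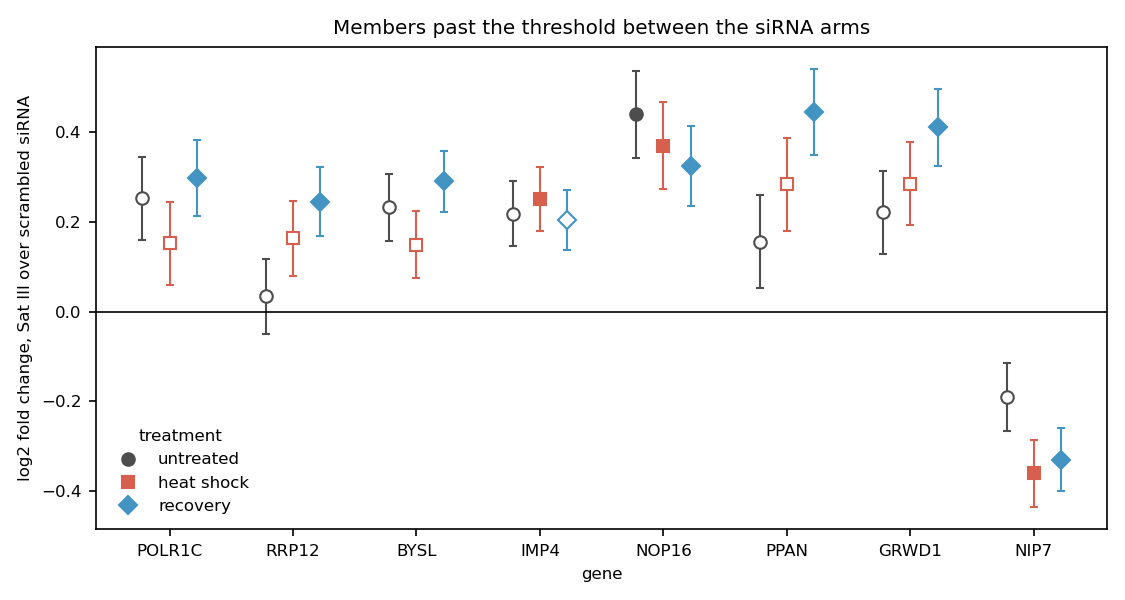
Log2 fold change of Sat III siRNA over scrambled siRNA (points, with SE bars) for the 8 members past the threshold in at least 1 treatment, in untreated cells (grey circles), after heat shock (red squares) and in recovery (blue diamonds); filled points have a limma adjusted p under 0.05. NOP16 is above 0 and filled in all 3 treatments, and NIP7 is the gene below 0.

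Further pathway genes also differed between the arms, with 6 higher and 1 lower in untreated cells, 2 and 4 after heat shock, and 13 and 3 in recovery. In untreated cells these were 7.23% and 1.2% of these genes, against 2.27% and 3.82% of all tested genes. After heat shock they were 2.41% and 4.82%, near the 2.35% and 4.68% of all tested genes. In recovery they were 15.7% and 3.61%, against 3.6% and 6.92%. POLR1G, another RNA polymerase I subunit, was higher with Sat III siRNA in all 3 treatments, by 0.62 ± 0.12 untreated, 0.55 ± 0.12 after heat shock and 0.67 ± 0.11 in recovery (limma adjusted p = 0.003, 0.00725 and 0.000451). GAR1, a core protein of the H/ACA snoRNP, was lower by 0.49 ± 0.07, 0.40 ± 0.07 and 0.38 ± 0.07 in the same order (limma adjusted p = 0.000132, 0.000852 and 0.000535). MYC was higher in untreated cells by 0.50 ± 0.14 (limma adjusted p = 0.0319), where untreated replicate 2 of the scrambled arm measured 9.49 and the other 3 arrays 10.19 to 10.30. Without that array the difference was 0.31 (limma adjusted p = 0.0634), and the MYC call was also lost without Sat III untreated replicate 1 (0.1), Sat III untreated replicate 2 (0.0614) or Sat III untreated replicate 4 (0.12).

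Whether a member responded differently in the 2 arms was tested as the difference between the arms in its change. In limma 0 of 38 members and 0 of 10147 genes (0%) passed for the change at heat shock, the change in recovery against untreated cells, and the change from heat shock to recovery, a comparison added after the data were seen. At an unadjusted p under 0.05, 1 member (WDR12) and 368 genes were below for the first, 0 members and 387 genes for the second, and 0 members and 349 genes for the third. The median half-width of the 95% confidence interval of a member's difference was 0.29 at heat shock and 0.28 in recovery. For POLR1B the change at heat shock differed by 0.23, 95% confidence interval -0.12 to 0.59, for NIP7 by -0.17, 95% confidence interval -0.39 to 0.05, and for PPAN the change in recovery differed by 0.29, 95% confidence interval -0.01 to 0.58. A difference that did not pass does not show that the arms responded alike.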

How the data were processed

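RNA from 22 samples of HEK293T cells in 6 groups was hybridised to Illumina bead arrays from 300 ng of total RNA, per the labels' protocols. The authors deposited a scanner table of intensity values with a detection p-value per probe, per the file headers, with no background subtracted as judged from its values, and a normalised intensity table on a linear scale, with its centring not given in the sources used here. From the scanner table, limma 3.58.1 in R 4.3.3 (neqc) estimated background from the detection p-values, added an offset of 16, quantile-normalised and took log2. Probes with a detection p-value under 0.01 on at least 3 arrays were kept. Symbols came from the platform annotation (28098 probes had 1 symbol, 28059 of them updated through gene numbers), and the brightest tested probe stood for a gene.

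All 10147 genes were fitted with a model of 6 group means and eBayes, and p-values were adjusted by Benjamini-Hochberg over all of them, with a threshold of 0.05. The number of arrays limits the precision. The members and lists were chosen with earlier results of these data known. Values on every array are given for members past the threshold, up to 4 in each class and comparison within an arm and up to 8 in each comparison between arms. Further pathway genes are counted, and those named are among the largest changes or passed in several comparisons. Replicate numbers did not pair the samples, since no comparison had every same-number correlation above 0.1, over 51 pairs. The median correlation was still higher for same-number pairs (0.17) than for other pairs (-0.04), so shared variation by number may remain. The fit was tested on simulated data.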

Additional observations from a re-analysis of the deposited data

Results flagged for a closer look

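Of 152 sets of 4 arrays (1 member in 1 group), 15 held an array whose gap to the nearest of the others was large against the whole range of the set. Chance alone flags about 1 in 20 such sets. Among untreated scrambled siRNA arrays, replicate 1 was low for POLR1C (10.99, the others at 11.19 to 11.23), TSR1 (8.77, against 9.16 to 9.23) and NOP16 (9.24, against 9.49 to 9.54) and high for PNO1 (8.93, against 8.50 to 8.57). Replicate 2 of that group was high for GRWD1 (10.35, against 10.10 to 10.12).

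Among heat-shocked scrambled siRNA arrays, replicate 4 was high for NOP14 (9.71, against 9.43 to 9.45) and low for HEATR1 (11.37, against 11.51 to 11.53), PNO1 (8.31, against 8.54 to 8.58) and NOLC1 (9.11, against 9.17 to 9.18). Replicate 1 of that group was high for IMP3 (11.68, against 11.58 to 11.59) and replicate 2 low for NOP16 (9.31, against 9.52 to 9.56). Among recovering Sat III siRNA arrays, replicate 3 was low for POLR1E (9.97, against 10.18 to 10.22) and UTP15 (7.16, against 7.73 to 7.75), and replicate 4 for TSR1 (8.73, against 8.87 to 8.89) and NOP56 (11.99, against 12.36 to 12.43).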

How the results depend on the processing

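The counts of members past the threshold were, in the 9 comparisons of 2 groups, 4, 7 and 7 with Sat III siRNA (heat shock and recovery against untreated, recovery against heat shock), 3, 9 and 7 with scrambled siRNA in the same order, and 1, 3 and 7 between the arms in untreated, heat-shocked and recovering cells. With median scaling they were 0, 0 and 1, then 1, 0 and 0, then 0, 0 and 0. In the authors' normalised table as labelled they were 0, except 1 between the arms in recovery, and NOP14 in recovery against untreated cells with Sat III siRNA changed sign, at 0.039. In that version, 6 of the 22 columns had the probe order of a scanner array labelled as another group. Its column for Sat III untreated replicate 4 matched scrambled recovery replicate 4 of the scanner, where NOP14 measured 9.10. Its column for Sat III recovery replicate 4 matched Sat III heat shock replicate 4, at 9.55. By the scanner labels, the groups compared there are thus mixed. What lowered the counts was not tested, there or with median scaling. Within replicates 1 and 2 they were 3, 0 and 5, then 1, 1 and 3, then 0, 0 and 1, and within replicates 3 and 4 they were 0, 0 and 1, then 1, 0 and 3, then 0, 0 and 0, from fewer samples. On the 15 arrays labelled alike they were 3, 3 and 6, then 2, 2 and 6, then 0, 2 and 2. With only the groups compared in the fit they were 3, 5 and 7, then 3, 2 and 7, then 0, 1 and 4. Between the arms in untreated cells the mean of a gene's probes gave 2 members and a term for replicates 1 and 2 against 3 and 4 gave 3. With the replicate block the counts were 5, 7 and 7, then 4, 11 and 9, then 2, 3 and 10, and it ended 1 of the 48 member calls, that of POLR1B at heat shock with Sat III siRNA. The replicate numbers give no known pairing: correlations of same-number arrays ran from -0.16 to 0.33 over 51 pairs, and 18 of 22 arrays correlated best with an array of their own number, a hint from the data and not the design.

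Leaving out 1 array gave 2 to 4, 4 to 7 and 5 to 7 members with Sat III siRNA, 3 to 4, 3 to 9 and 6 to 8 with scrambled siRNA, and 0 to 2, 1 to 4 and 5 to 9 between the arms. The other alternatives (no background correction, no or a stricter filter on dim probes, and every probe as a row, which was added after the data were seen) kept each count within 1.5 times. Leaving out arrays for the further pathway genes was also added after the data were seen. For the differences between the arms in a change, every alternative gave 0 members. The dimmest members limit what could be seen: UTP20 was detected on 7 of 22 arrays, and NPM1 on 0.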

Other observations

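NOP9, a small-subunit factor outside the member list, was singled out after its values were seen. In recovery NOP9 was higher with Sat III siRNA than with scrambled siRNA by 0.68 ± 0.09 (limma adjusted p = 4.1e-05), without overlap of the arrays. That was the largest difference between the arms in recovery among the further pathway genes that passed. From heat shock to recovery it was higher with Sat III siRNA by 0.31 ± 0.10 (limma adjusted p = 0.0336) and lower with scrambled siRNA by 0.33 ± 0.09 (limma adjusted p = 0.0159). The difference between the arms in this change was 0.64 ± 0.14 and did not pass over all genes in limma, with an adjusted p of 0.262 and an unadjusted p of 0.000155. The Sat III siRNA call was lost without heat shock replicate 1 (0.0686), recovery replicate 1 (0.0548), heat shock replicate 2 (0.153), recovery replicate 2 (0.0888) or recovery replicate 4 (0.0522), and the scrambled one without heat shock replicate 1 (0.0554), recovery replicate 1 (0.051) or heat shock replicate 4 (0.0531) (limma adjusted p).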
